A study of Mus musculus with 16 samples.

Results

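The 29 genes described here encode the ion channels and connexins that shape the action potential of heart muscle and carry it from cell to cell. They were chosen by name: 1 sodium channel subunit, 5 repolarising potassium channel genes, 3 genes of the transient outward current, 4 inward rectifiers, 4 genes of the ATP-sensitive potassium channel, 1 background potassium channel, 2 pacemaker channels, 6 calcium channel subunits and 3 connexins. A probe could be matched through its RefSeq accession for 28 of the 29, all but Scn4b, and each gene was read from its brightest probe. Of these 28, 24 passed the filter on dim probes, among 17773 genes tested in the whole series.

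RNA came from HL-1 cells, a single immortalised line of mouse atrial cardiomyocytes, which the labels give as female. Cells in Claycomb medium received for 6 h 100 nM dexamethasone plus 10 nM estradiol (Dex+E2), 100 nM dexamethasone, a synthetic glucocorticoid (Dex), 10 nM estradiol (E2), or phosphate-buffered saline as vehicle. Each of the 4 labels has 4 single-colour arrays, from what the design text calls independent experiments, and the title asks how glucocorticoid and estrogen oppose each other. The labels do not say whether the medium was stripped of hormones.

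In an atrial myocyte, pacemaker and T-type calcium channels help bring the membrane to threshold, sodium channels fire the upstroke, and L-type calcium channels hold the plateau and trigger contraction. Potassium channels then end the action potential, and inward rectifiers hold the resting potential. Connexins assemble into gap junctions, through which current passes to the neighbouring cell. In the intact heart the proteins differ by region: connexin genes Gja5 and Gja1 mark atrial and working muscle, Gjc1 and Hcn4 the nodes.

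Levels are log2 of the processed signal relative to the 75th percentile of the same array, so 0 means as bright as that percentile and a difference of 1 is a ratio of 2 in signal. Levels of one gene can be compared between arrays, and levels of different genes, read by different probes, cannot. The 16 arrays were alike in quality, with 58.6% to 65.6% of probes well above background, 0 saturated probes and a 75th percentile between 402 and 557 intensity units. All 8 atrial cardiomyocyte markers, among them Nppa, Myl7, Myl4 and Sln, were well above background on 16 of 16 arrays. So were 4 of 4 ventricular, 5 of 6 fibroblast, 3 of 3 smooth muscle, 1 of 4 endothelial, 1 of 3 macrophage and 1 of 3 neuron markers. The endothelial Pecam1 and Cdh5, the leukocyte and macrophage genes Ptprc and Adgre1 and the neuronal Snap25 were above background on 0 arrays.

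Per1, a clock gene that glucocorticoids induce, did not follow the labels, and the arrays are therefore also described by its level. Its probe (A_52_P79889) read 1.86, 1.82 and 1.95 on Dex+E2 1, 2 and 4, 1.91, 1.81 and 1.99 on Dex 1, 2 and 4, 1.95 on E2 4 and 1.75 on Vehicle 4. It read -1.11 on Dex+E2 3, -1.15 on Dex 3, -0.86, -1.0 and -1.29 on E2 1, 2 and 3 and -0.96, -0.75 and -1.11 on Vehicle 1, 2 and 3. The first 8 arrays are called Per1-high and the other 8 Per1-low. Among arrays numbered 1 and 2 this division follows the Dex labels, and among those numbered 3 and 4 every array numbered 4 was high and every array numbered 3 low. The division comes from a measured level, so values along it are descriptions and carry no test. The arrays lay on 4 slides of 4, slide 1 with the first pairs of Dex and vehicle arrays (numbers 1 and 2), slide 2 with the first pair of E2 and the second of vehicle (3 and 4), slide 3 with the first pair of Dex+E2 and the second of Dex, and slide 4 with the second pairs of Dex+E2 and E2. Each slide held both Per1-high and Per1-low arrays, 2 of each on slides 1 and 4. Slide 2 held 1 Per1-high and 3 Per1-low arrays, and slide 3 held 3 Per1-high and 1 Per1-low. On slides 2 and 3 the median of 1 side is thus the value of 1 array. The sides had like depth, with 58.6% to 65.6% of probes above background on Per1-high and 58.6% to 65.1% on Per1-low arrays.

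The sequences before the start sites of 4 genes that separated the Per1-high from the Per1-low arrays are shown, because the levels of these 4 moved apart along the same division. They are the 250 bases before a RefSeq start in assembly GRCm38.p6, written 5′ to 3′ on the strand of the gene, with each SP1 GC-box (GGGCGG on either strand) in capitals. The windows of Gja5 and Gja1 end just before the annotated gene, and those of Kcnh2 and Kcnj12 lie inside the gene, before an internal start that the table lists.
Gja5 (chr3:97032152-97032401, plus strand): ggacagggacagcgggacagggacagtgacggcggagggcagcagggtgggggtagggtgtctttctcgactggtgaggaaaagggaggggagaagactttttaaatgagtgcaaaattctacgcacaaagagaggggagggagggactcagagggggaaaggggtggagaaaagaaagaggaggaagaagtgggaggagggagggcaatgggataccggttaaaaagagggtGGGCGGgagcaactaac
Gja1 (chr10:56377050-56377299, plus strand): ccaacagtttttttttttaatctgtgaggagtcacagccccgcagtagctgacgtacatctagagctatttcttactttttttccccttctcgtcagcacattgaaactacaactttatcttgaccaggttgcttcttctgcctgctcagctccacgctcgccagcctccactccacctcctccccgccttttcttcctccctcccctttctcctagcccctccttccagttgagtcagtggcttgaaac
Kcnh2 (chr5:24329592-24329841, minus strand): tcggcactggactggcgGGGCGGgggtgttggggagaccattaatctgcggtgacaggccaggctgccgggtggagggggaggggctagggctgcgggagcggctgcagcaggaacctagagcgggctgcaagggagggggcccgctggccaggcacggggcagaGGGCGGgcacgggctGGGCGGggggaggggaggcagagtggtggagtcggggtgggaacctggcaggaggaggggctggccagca
Kcnj12 (chr11:61065554-61065803, plus strand): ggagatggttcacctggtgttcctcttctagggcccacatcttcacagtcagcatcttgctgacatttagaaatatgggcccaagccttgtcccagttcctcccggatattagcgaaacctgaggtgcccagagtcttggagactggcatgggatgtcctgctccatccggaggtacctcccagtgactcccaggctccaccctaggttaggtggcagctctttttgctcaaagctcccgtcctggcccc
Cacna1g and Kcnj11, the other two, are named only. The Gja5 window held 1 GC-box, the Kcnh2 window 3, and the Gja1 and Kcnj12 windows 0. The glucocorticoid receptor half-site AGAACA, the estrogen receptor half-site AGGTCA and the clock protein E-box CACGTG, searched on both strands, were in none of these 4 windows. Over all 20 listed genes with a window, 24 windows in all, AGAACA was found in 3 (1 of 3 windows of Cacna1c, 1 of 2 of Cacna1d and 1 of 2 of Cacnb2), AGGTCA in 1 (Hcn2), CACGTG in 1 (Kcnj2) and the GC-box in 14. Among all 32851 windows in the table the shares were 16.1% for AGAACA, 14.0% for AGGTCA, 6.02% for CACGTG and 32.7% for the GC-box. A match is a run of letters and not a known site, and these windows leave out distant enhancers.

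Of the 28 genes with a probe, 21 were well above background on 16 of 16 arrays. All 3 connexins were measured on every array. Gjc1, the nodal connexin, lay between 3.81 and 4.44, Gja1, the main connexin of working muscle, between -2.68 and -1.50, and Gja5, the connexin of atrium and conduction system, between -3.93 and -1.68. The range of Gja5 over the arrays was thus the widest of the 3.

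All 6 calcium channel genes were measured on 16 arrays. The L-type pore subunit gene Cacna1c ranged from -0.88 to -0.34 and its atrial and nodal relative Cacna1d from -2.32 to -1.54. Among the T-type pore genes, Cacna1g ranged from -1.66 to 0.97 and Cacna1h from -0.04 to 1.27. The auxiliary subunit genes Cacnb2 and Cacna2d1 ranged from -1.19 to -0.34 and from 0.42 to 0.77. Cacna1g was the most variable of the 6 across arrays and Cacna2d1 the least. The pacemaker channel gene Hcn2 was above background on 16 arrays (-4.34 to -2.98), and Hcn4, the main pacemaker channel of the sinoatrial node, on 15 (-5.77 to -4.65).

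The repolarising genes Kcnh2, Kcnh6, Kcnq1 and Kcne1 were measured on all 16 arrays. Kcnh2, whose channel carries the rapid delayed rectifier current, ranged from 1.29 to 2.03, and Kcnh6, a relative in the same family, from -4.89 to -3.55. Kcnq1 and Kcne1, the pore and the accessory subunit of the slow delayed rectifier, ranged from 0.41 to 0.97 and from 0.82 to 1.37. Kcna5, which carries the ultrarapid current of atrial muscle in humans, was above background on 2 arrays only, at -4.13 on Dex+E2 4 and -3.89 on Vehicle 1, and was not tested. The transient outward genes were the group least measured: Kcnd2 was above background on 14 arrays (-6.14 to -4.67), and Kcnd3 and its partner Kcnip2 on 0.

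Kcnj2, one of the inward rectifiers that set the resting potential of ventricular muscle, was above background on 0 of 16 arrays, and its relative Kcnj12 on 16 (-5.43 to -3.10). Kcnj3 (-3.04 to -2.07) and Kcnj5 (-3.36 to -2.80), which form the acetylcholine-gated channel of atrial and nodal cells, were both measured on 16 arrays. Of the ATP-sensitive channel, the pore gene Kcnj11 (-1.06 to -0.72) and the sulfonylurea receptor genes Abcc8 (3.21 to 3.72) and Abcc9 (1.90 to 2.88) were measured on 16 arrays, and the second pore gene Kcnj8 on 10 (-6.68 to -5.15). Kcnk3, a background potassium channel gene, ranged from 0.66 to 1.33 on 16 arrays. Of the 24 tested genes, Kcnj8, Kcnd2 and Hcn4 thus lay near background on some arrays.

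The arrays labelled Dex were set against those labelled vehicle to ask what the glucocorticoid does alone. No listed gene was called: limma, fitted on all 16 arrays, called 0 of 17773 genes at a Benjamini-Hochberg adjusted p under 0.05 (0% of genes, 1932 at an unadjusted p under 0.05), and 1 of 24 listed genes had an unadjusted p under 0.05. That gene was Kcnh6, at -4.41, -4.46, -4.41 and -4.89 on Dex 1 to 4, against -3.96, -3.93, -3.55 and -4.16 on Vehicle 1 to 4. All 4 Dex arrays lay below all 4 vehicle arrays, with a difference of -0.64 ± 0.15 (SE, limma, adjusted p = 0.451), and on slide 1 by itself the difference was -0.48 ± 0.16 (SE, limma, adjusted p = 0.296). With normexp background correction it was -0.20 (limma, adjusted p = 0.602). That setting adds 50 intensity units to each signal before log2, which by itself makes log2 differences of dim probes smaller. Kcnh6 was the single listed gene whose Dex and vehicle arrays did not overlap, where 4.55% of all genes did not. Over the 24 genes the median difference was -0.14, with 8 positive, against -0.03 and 43.3% positive over all genes tested.

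Cacna1g, Gja5 and Kcnj12 also lay apart on average between these labels, with a wide spread within each label. Cacna1g averaged -0.78 ± 0.73 on arrays labelled Dex+E2, -0.78 ± 0.60 on Dex, -0.16 ± 0.59 on E2 and 0.10 ± 1.00 on vehicle (SD, n = 4 each), and Dex differed from vehicle by -0.88 ± 0.47 (SE, limma, adjusted p = 0.511). Gja5 averaged -3.22 ± 0.48 on arrays labelled Dex+E2, -3.30 ± 0.68 on Dex, -2.71 ± 0.81 on E2 and -2.58 ± 0.94 on vehicle (SD, n = 4 each), with a difference of -0.73 ± 0.48 between Dex and vehicle (SE, limma, adjusted p = 0.571). Kcnj12 averaged -3.83 ± 1.01 on arrays labelled Dex+E2, -3.79 ± 1.11 on Dex, -4.32 ± 0.72 on E2 and -4.35 ± 0.53 on vehicle (SD, n = 4 each), with a difference of 0.56 ± 0.56 (SE, limma, adjusted p = 0.713). With normexp the differences of Gja5 and Kcnj12 were -0.37 and 0.24. Each of these 3 differences was smaller than the larger SD of its labels. In each of the labels Dex and Dex+E2 the array numbered 3 lay on the vehicle side of the other 3 arrays for all 3 genes, and the array Vehicle 4 lay on the Dex side of the other 3 vehicle arrays.

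**Figure D1:**
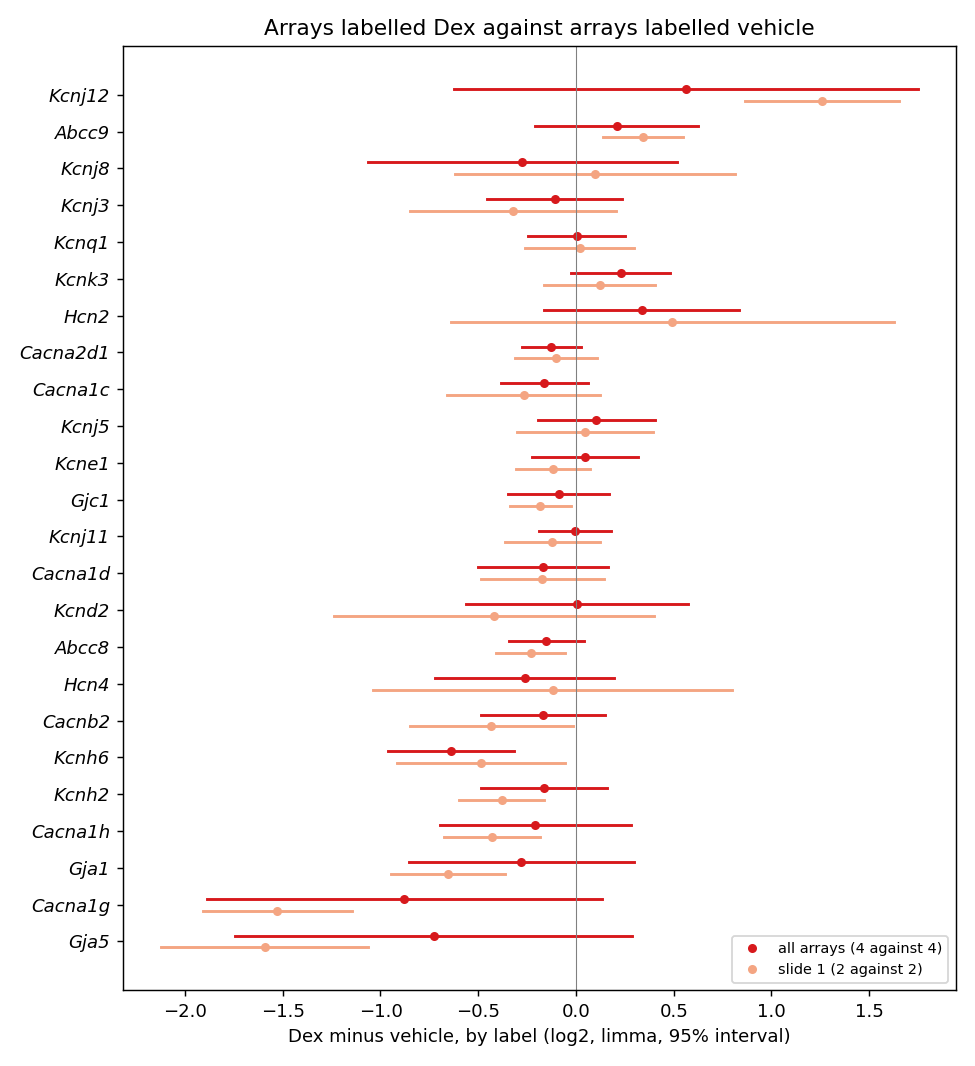
Difference between arrays labelled Dex and arrays labelled vehicle for the 24 tested genes (x axis, log2, limma estimate with its 95% interval), over all arrays in dark red (4 against 4) and on slide 1 in light red (2 against 2). The interval over all arrays crosses 0 for every gene but Kcnh6, and the slide 1 estimates of Gja5 (-1.59), Cacna1g (-1.53) and Kcnj12 (1.26) lie further from 0 than those over all arrays.

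On slide 1, where the labels and Per1 go together (Dex 1 and 2, against Vehicle 1 and 2), the same 3 genes and Gja1 led the listed genes without being called. Cacna1g was at -0.65 and -0.80 on the Dex arrays, against 0.64 and 0.97 on the vehicle arrays, a difference of -1.53 ± 0.14 (SE, limma within the slide, adjusted p = 0.0592). Kcnj12 was at -3.10 and -3.16 on the Dex arrays, against -4.38 and -4.39 on the vehicle arrays (1.26 ± 0.15, adjusted p = 0.0768). Gja5 was at -3.30 and -3.63 on the Dex arrays, against -2.06 and -1.68 on the vehicle arrays (-1.59 ± 0.20, adjusted p = 0.0861). For these 3 genes the arrays of one label lay close together and far from those of the other, but no listed gene passed the adjusted threshold. Gja1 differed by -0.65 ± 0.11 (adjusted p = 0.132), Kcnh2 by -0.38 ± 0.08, Cacna1h by -0.43 ± 0.09 (adjusted p = 0.190 for both) and Abcc9 by 0.34 ± 0.08 (adjusted p = 0.202). In all, 0 of 24 listed genes were called on slide 1, where 45 genes were called (39 higher and 6 lower, 0.253%), and 11 of 24 had an unadjusted p under 0.05, against 2798 of 17773 genes. The median difference of the 24 was -0.18, with 7 positive, against -0.03 and 43.6% positive over all genes.

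The arrays labelled E2, set against vehicle for the effect of estradiol alone, gave 0 genes called by limma (0%, 682 at an unadjusted p under 0.05), and no listed gene separated the labels, where 2.22% of all genes did. Kcnk3 had the single unadjusted p under 0.05 among the 24, at 1.33, 1.30, 0.84 and 0.74 on E2 1 to 4, against 0.94, 0.71, 0.74 and 0.66 on Vehicle 1 to 4, a difference of 0.29 ± 0.12 (SE, limma, adjusted p = 0.978), or 0.45 ± 0.12 with slide as a block (adjusted p = 0.373). E2 1 and 2 were higher than any vehicle array, and E2 3 and 4 lay within the vehicle range. Over the 24 genes the median difference was -0.01, with 11 positive, against -0.02 and 44.2% over all genes. On slide 2 alone (E2 1 and 2, against Vehicle 3 and 4) 0 genes were called by limma and 22 of 24 listed genes were higher on the E2 arrays, with a median of 0.20, against 43.0% of all genes with a median of -0.04. On that slide label goes with array number, and Vehicle 4 was Per1-high, so these cannot be told apart there.

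Arrays labelled Dex+E2 were set against vehicle, against Dex and against E2, and limma called 0 genes in each (0%), with 990, 567 and 714 genes at an unadjusted p under 0.05. Against vehicle, Kcnh6 and Hcn2 had arrays that did not overlap, 2 of 24 where 1.85% of all genes did not. Kcnh6 was at -4.27, -4.36, -4.31 and -4.35 on Dex+E2 1 to 4, below every vehicle array, and differed by -0.42 ± 0.15 (SE, limma, adjusted p = 0.715). Hcn2 was at -4.06, -3.65, -4.04 and -4.0 on Dex+E2 1 to 4, just above the -4.07, -4.11, -4.18 and -4.34 of Vehicle 1 to 4, and differed by 0.24 ± 0.23 (SE, limma, adjusted p = 0.776). With slide as a block these differences were -0.23 ± 0.22 for Kcnh6 and 0.42 ± 0.34 for Hcn2 (SE, limma, adjusted p = 0.95 for both), and with normexp -0.07 and 0.12. The median difference of the 24 was -0.14, with 6 positive, against -0.02 and 45.8% over all genes. Dex+E2 and vehicle shared no slide, so no value within a slide exists for this comparison.

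Against Dex, the Dex+E2 arrays did not overlap for Kcnh6 and Kcnk3, 2 of 24 where 3.06% of all genes did not. Kcnh6 was higher on all 4 Dex+E2 arrays than on any Dex array, by 0.22 ± 0.15, and Kcnk3 was lower on Dex+E2 arrays (0.85, 0.93, 0.70 and 0.92) than on Dex arrays (0.96, 0.93, 1.03 and 1.04), with a difference of -0.14 ± 0.12 (SE, limma, adjusted p = 1.00 for both). With slide as a block the Kcnk3 difference changed sign, to 0.02 ± 0.12 (SE, limma, adjusted p = 0.961), and with normexp that of Kcnh6 was 0.13. Against E2, Hcn4 alone did not overlap, 1 of 24 where 2.9% of all genes did not: it was at -5.14, -5.0, -4.95 and -4.99 on Dex+E2 1 to 4, against -4.78, -4.67, -4.73 and -4.65 on E2 1 to 4, a difference of -0.31 ± 0.21 (SE, limma, adjusted p = 1.00), and of -0.06 with normexp. Kcnh2 had the single unadjusted p under 0.05, at -0.39 ± 0.15 (SE, limma, adjusted p = 1.00), with 1.34, 1.30, 1.72 and 1.29 on Dex+E2 1 to 4 and 2.00, 2.03, 1.68 and 1.5 on E2 1 to 4. These sets overlap, because Dex+E2 3 was above both E2 3 and E2 4. The Dex by E2 interaction, which asks whether one hormone changes the effect of the other, called 0 genes (0%, 661 at an unadjusted p under 0.05), and Kcnk3 had the single unadjusted p under 0.05 of the 24, at -0.43 ± 0.17 (SE, limma, adjusted p = 0.999). On slide 3 (Dex+E2 against Dex) and slide 4 (Dex+E2 against E2) limma called 0 genes, and 14 and 10 of the 24 listed genes were positive, against 62.7% and 32.9% of all genes. The comparisons share arrays, so their values for one gene are not independent.

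By Per1 level, the picture differed. Of the 24 listed genes, 6 had Per1-high arrays that did not overlap the Per1-low arrays, where 4.01% of all genes tested did not overlap. The inward rectifier gene Kcnj12 was the 1 that was higher (1.99% of all genes), and the 5 that were lower were the connexin genes Gja5 and Gja1, the T-type calcium channel gene Cacna1g, the repolarising channel gene Kcnh2 and the ATP-sensitive channel gene Kcnj11 (2.02% of all genes). Medians were lower on the Per1-high arrays for 17 of 24 listed genes (70.8%), against 54.2% of all genes, and the median of the 24 differences was -0.16, against -0.01. Abcc9 and Cacna1h, whose ranges overlapped, had the next largest differences of medians and are given with these 6. In bulk RNA, fewer cells of a kind and less RNA per cell cannot be told apart.

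**Figure D2:**
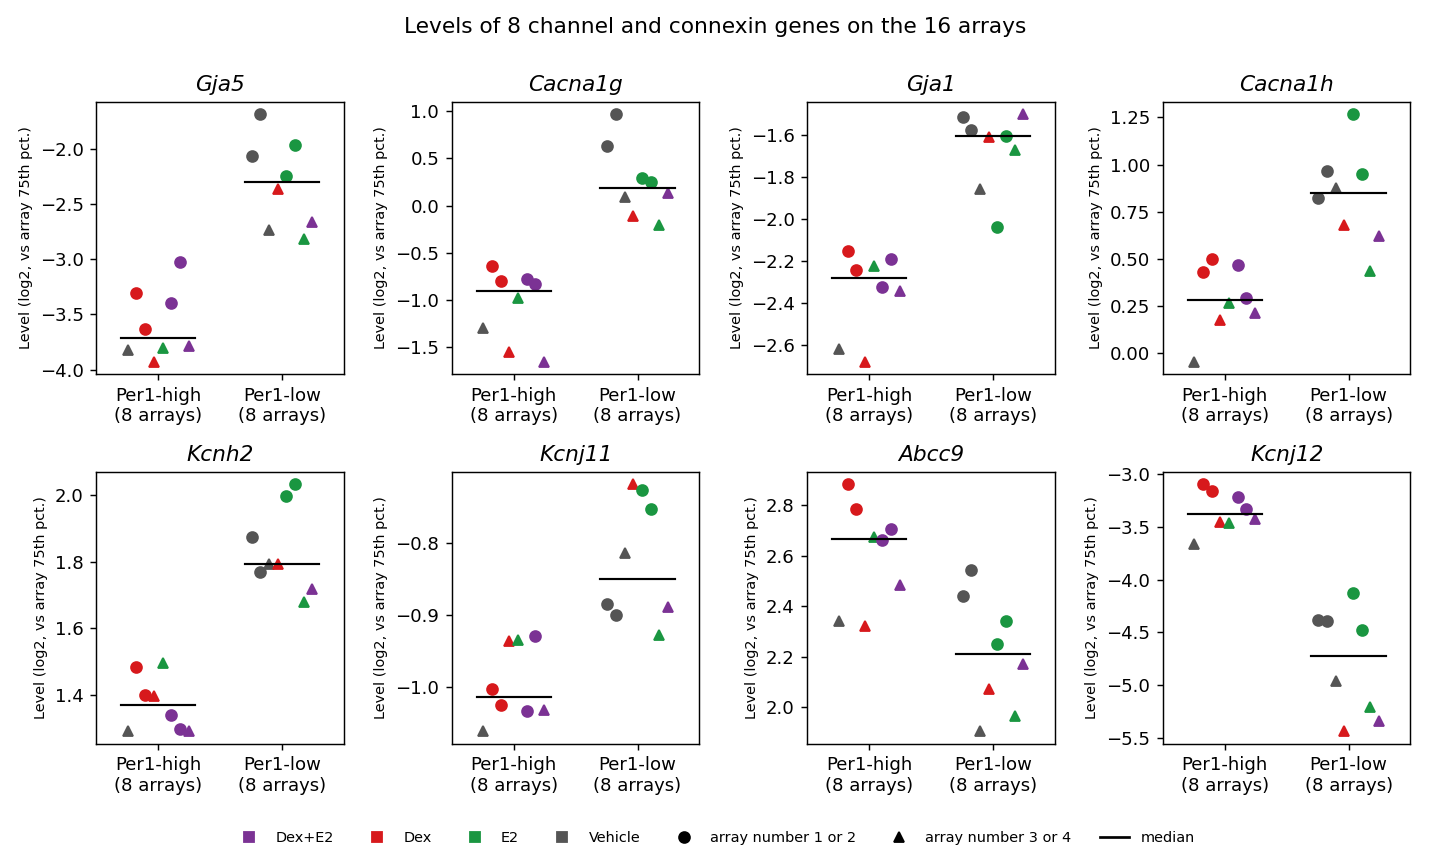
Levels of 8 genes on the 8 Per1-high and the 8 Per1-low arrays (y axis, log2 relative to the array's 75th percentile, a scale of its own in each panel), coloured by label, with circles for arrays numbered 1 or 2, triangles for 3 or 4 and a line at each median. Kcnj12 is higher and Gja5, Cacna1g, Gja1, Kcnh2 and Kcnj11 are lower on every Per1-high array than on any Per1-low array, and Cacna1h and Abcc9 overlap.

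Gja5 had the largest decrease. On the Per1-high arrays it was at -3.40, -3.03 and -3.79 on Dex+E2 1, 2 and 4, -3.30, -3.63 and -3.93 on Dex 1, 2 and 4, -3.80 on E2 4 and -3.82 on Vehicle 4. The Per1-low arrays held -2.66 on Dex+E2 3, -2.36 on Dex 3, -2.25, -1.96 and -2.81 on E2 1, 2 and 3 and -2.06, -1.68 and -2.73 on Vehicle 1, 2 and 3. The median was -3.71 on Per1-high and -2.30 on Per1-low arrays, 2.65-fold lower in signal on the Per1-high arrays, with a gap of 0.21 between the closest arrays, Dex+E2 2 and E2 3. Within the 4 slides the difference of medians lay between -1.59 and -1.04. With normexp background correction the difference of medians over all arrays was -0.57 and the ranges overlapped. A second, dimmer Gja5 probe did not show this, with medians of -4.78 on Per1-high and -4.69 on Per1-low arrays and overlapping ranges, so the decrease was seen with the brighter probe alone. Both Gja5 probes were well above background on 16 arrays.

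Gja1, read by 1 probe, was lower as well. Its levels on the Per1-high arrays were -2.32, -2.19 and -2.34 on Dex+E2 1, 2 and 4, -2.15, -2.24 and -2.68 on Dex 1, 2 and 4, -2.23 on E2 4 and -2.62 on Vehicle 4. On the Per1-low arrays they were -1.50 on Dex+E2 3, -1.61 on Dex 3, -2.04, -1.60 and -1.67 on E2 1, 2 and 3 and -1.51, -1.58 and -1.86 on Vehicle 1, 2 and 3. The median was 1.6-fold lower in signal on the Per1-high arrays, the gap was 0.11, and within slides the difference lay between -0.76 and -0.65. With normexp the difference of medians was -0.40, and after quantile normalization and in the deposited table the ranges overlapped. Gjc1, the third connexin gene, overlapped, with 3.81 to 4.23 (median 4.12) on Per1-high and 4.13 to 4.44 (median 4.28) on Per1-low arrays.

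Cacna1g was the calcium channel gene that separated the arrays. It was at -0.78, -0.83 and -1.66 on Dex+E2 1, 2 and 4, -0.65, -0.80 and -1.56 on Dex 1, 2 and 4, -0.98 on E2 4 and -1.30 on Vehicle 4. Its Per1-low levels were 0.13 on Dex+E2 3, -0.11 on Dex 3, 0.30, 0.25 and -0.21 on E2 1, 2 and 3 and 0.64, 0.97 and 0.09 on Vehicle 1, 2 and 3. The median was 2.14-fold lower in signal on the Per1-high arrays and the gap between the closest arrays was 0.44. A second Cacna1g probe also separated the arrays, with medians of -4.02 on Per1-high and -2.98 on Per1-low arrays. Within slides the difference of the brighter probe lay between -1.55 and -0.72. Its relative Cacna1h read -0.04 to 0.50 (median 0.28) on Per1-high and 0.44 to 1.27 (median 0.85) on Per1-low arrays, and the sole overlap came from E2 3, at 0.44, below Dex 2 at 0.50 and Dex+E2 1 at 0.47. All 3 Cacna1h probes had lower medians on the Per1-high arrays, with differences of -0.57 to -0.65, and within slides the brightest differed by -1.0 to -0.29. The L-type genes differed less: Cacna1c read -0.88 to -0.76 (median -0.79) on Per1-high and -0.81 to -0.34 (median -0.69) on Per1-low arrays, and Cacna1d -2.32 to -1.71 (median -1.94) on Per1-high and -1.95 to -1.54 (median -1.76) on Per1-low arrays. Cacnb2 narrowly overlapped (not after quantile normalization or in the deposited table), at -1.19 to -0.86 (median -1.05) on Per1-high and -0.87 to -0.34 (median -0.72) on Per1-low arrays.

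Kcnh2 was lower on the Per1-high arrays, by a smaller amount and with little spread. It was at 1.34, 1.30 and 1.29 on Dex+E2 1, 2 and 4, 1.49, 1.40 and 1.40 on Dex 1, 2 and 4, 1.5 on E2 4 and 1.29 on Vehicle 4. On the Per1-low arrays it was at 1.72 on Dex+E2 3, 1.80 on Dex 3, 2.00, 2.03 and 1.68 on E2 1, 2 and 3 and 1.87, 1.77 and 1.79 on Vehicle 1, 2 and 3. The median was 1.34-fold lower in signal, with a gap of 0.18, and within slides the difference lay between -0.71 and -0.30. Kcnh6 overlapped, at -4.89 to -4.16 (median -4.35) on Per1-high and -4.41 to -3.55 (median -3.99) on Per1-low arrays. Kcnq1 overlapped too, at 0.41 to 0.87 (median 0.77) on Per1-high and 0.60 to 0.97 (median 0.73) on Per1-low arrays, and so did its partner Kcne1, at 0.82 to 1.29 (median 1.15) on Per1-high and 0.90 to 1.37 (median 1.30) on Per1-low arrays. Of the repolarising genes, Kcnq1 had the medians closest together.

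Kcnj12 went the other way. It was at -3.22, -3.34 and -3.43 on Dex+E2 1, 2 and 4, -3.10, -3.16 and -3.46 on Dex 1, 2 and 4, -3.47 on E2 4 and -3.67 on Vehicle 4. Its levels on the Per1-low arrays were -5.33 on Dex+E2 3, -5.43 on Dex 3, -4.12, -4.48 and -5.20 on E2 1, 2 and 3 and -4.38, -4.39 and -4.96 on Vehicle 1, 2 and 3. The median was 2.53-fold higher in signal on the Per1-high arrays, with a gap of 0.46, the widest of the 6, and within slides the difference lay between 0.81 and 2.10. With normexp the difference of medians was 0.56 and the ranges were still apart. On the Per1-low side the arrays numbered 3 (-5.33, -5.43, -5.20 and -4.96) were all below those numbered 1 and 2. The other inward rectifier genes overlapped: Kcnj3 read -2.89 to -2.57 (median -2.71) on Per1-high and -3.04 to -2.07 (median -2.77) on Per1-low arrays, and Kcnj5 -3.36 to -2.85 (median -3.15) on Per1-high and -3.30 to -2.80 (median -3.01) on Per1-low arrays.

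Within the ATP-sensitive channel the subunit genes differed in direction. Abcc9 had a higher median on the Per1-high arrays, at 2.66, 2.71 and 2.48 on Dex+E2 1, 2 and 4, 2.88, 2.79 and 2.32 on Dex 1, 2 and 4, 2.67 on E2 4 and 2.34 on Vehicle 4. On the Per1-low arrays it was at 2.17 on Dex+E2 3, 2.07 on Dex 3, 2.25, 2.34 and 1.96 on E2 1, 2 and 3 and 2.44, 2.54 and 1.90 on Vehicle 1, 2 and 3. Its overlap came from Dex+E2 4, Dex 4 and Vehicle 4, which lay below the highest Per1-low array, Vehicle 2. The 3 Abcc9 probes all had higher medians on the Per1-high arrays, by 0.35 to 0.45, each with overlap, and within slides the brightest differed by 0.09 to 0.59. Kcnj11 was lower by little: it was at -1.03, -0.93 and -1.03 on Dex+E2 1, 2 and 4, -1.0, -1.03 and -0.94 on Dex 1, 2 and 4, -0.94 on E2 4 and -1.06 on Vehicle 4. The Per1-low levels were -0.89 on Dex+E2 3, -0.72 on Dex 3, -0.73, -0.75 and -0.93 on E2 1, 2 and 3 and -0.89, -0.90 and -0.81 on Vehicle 1, 2 and 3. The gap between the closest arrays, Dex+E2 2 and E2 3, was 0.0012, the smallest of the 6, and the ranges overlapped with normexp, after quantile normalization and in the deposited table. Abcc8 overlapped, at 3.21 to 3.54 (median 3.41) on Per1-high and 3.45 to 3.72 (median 3.61) on Per1-low arrays, and Kcnj8 overlapped widely.

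The other listed genes overlapped. Kcnk3 read 0.66 to 1.04 (median 0.92) on Per1-high and 0.70 to 1.33 (median 0.89) on Per1-low arrays. The pacemaker gene Hcn2 read -4.34 to -2.98 (median -4.03) on Per1-high and -4.24 to -3.59 (median -4.05) on Per1-low arrays, and Hcn4 -5.77 to -4.65 (median -5.09) on Per1-high and -5.64 to -4.67 (median -4.78) on Per1-low arrays. Both pacemaker genes varied more within a side than between the medians. Cacna2d1 read 0.42 to 0.60 (median 0.55) on Per1-high and 0.50 to 0.77 (median 0.63) on Per1-low arrays, and Kcnd2 -6.14 to -4.67 (median -5.82) on Per1-high and -6.03 to -5.27 (median -5.64) on Per1-low arrays. In 4 of 4 slides 11 of the 24 genes were lower and 2, Kcnj12 and Abcc9, higher on the Per1-high arrays, where 14.6% of all genes were lower and 9.69% higher in 4 of 4.

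**Figure D3:**
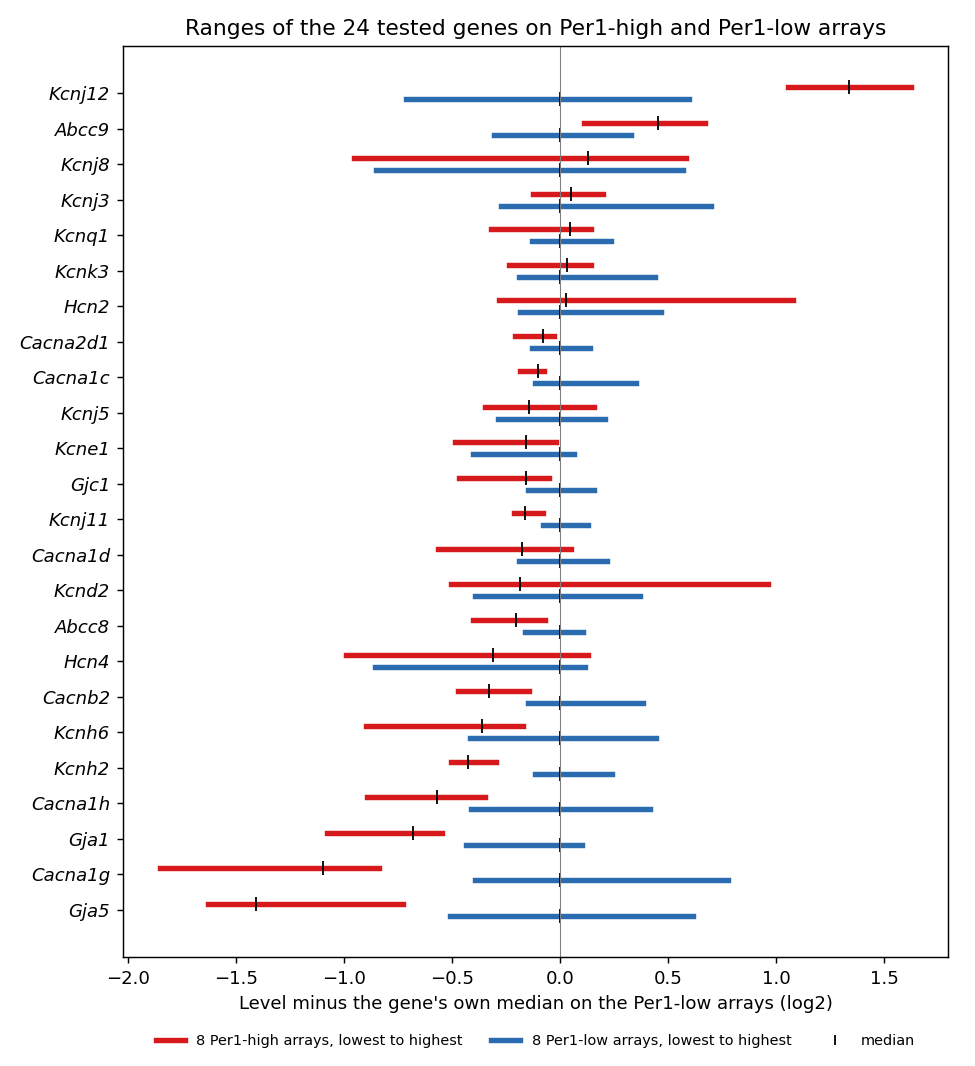
Lowest to highest level of each of the 24 tested genes on Per1-high arrays (red, upper line) and Per1-low arrays (blue, lower line), with ticks at the medians and the Per1-low median of each gene set to 0 (x axis, log2). The red and blue lines are apart for Kcnj12 on the right and for Gja5, Cacna1g, Gja1 and Kcnh2 on the left, and those of Kcnj11 nearly touch.

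The closest comparison of Per1-high with Per1-low arrays is between arrays numbered 4 and 3, which share a label and a slide. These arrays also enter the differences within slides 2, 3 and 4, so the 2 descriptions are not independent. The difference, array 4 minus array 3, had the same sign in 4 of 4 labels for 12 of the 24 genes, where 25.3% of all genes did. Of these, 10 were lower on the arrays numbered 4 and 2, Kcnj12 and Abcc9, were higher. Gja5 differed by -1.13 for Dex+E2, -1.57 for Dex, -0.99 for E2 and -1.09 for vehicle. Cacna1g differed by -1.79 for Dex+E2, -1.45 for Dex, -0.78 for E2 and -1.38 for vehicle. Gja1 differed by -0.84 for Dex+E2, -1.07 for Dex, -0.56 for E2 and -0.76 for vehicle. All 3 were lower on array 4 whichever hormone the label names. For Kcnj12 the values were 1.90 for Dex+E2, 1.98 for Dex, 1.74 for E2 and 1.30 for vehicle, and for Abcc9 0.31 for Dex+E2, 0.25 for Dex, 0.71 for E2 and 0.44 for vehicle. Kcnh2 showed -0.43 for Dex+E2, -0.40 for Dex, -0.18 for E2 and -0.50 for vehicle. Array number also goes with slide position, and what else sets array 4 apart from array 3 is not given by the labels. Among arrays numbered 1 and 2, where Per1 follows the Dex labels, Gja5 was at -3.63 to -3.03 on Per1-high and -2.25 to -1.68 on Per1-low arrays, and Kcnj12 at -3.34 to -3.10 on Per1-high and -4.48 to -4.12 on Per1-low arrays. The sides were apart among these arrays as well.

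**Figure D4:**
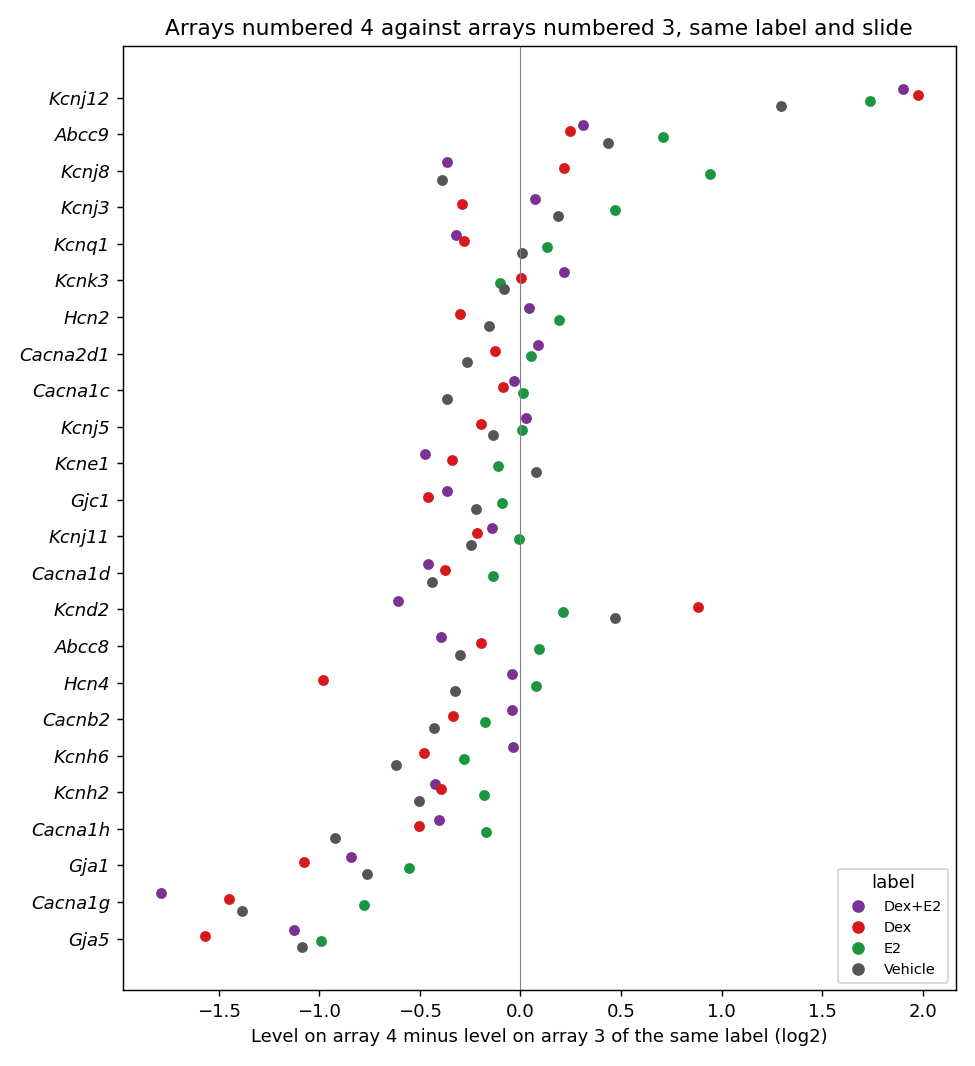
Level on array 4 minus level on array 3 of the same label and slide for the 24 tested genes (x axis, log2), 1 point for each label, coloured by label. All 4 points lie left of 0 for 10 genes, Gja5, Cacna1g and Gja1 furthest, and right of 0 for Kcnj12 and Abcc9.

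A wider list of 72 channel, carrier and junction genes was counted beside these. Of the 70 with a probe, 45 were tested, limma called 0 of them in any label comparison or on slide 1 (lowest adjusted p = 0.0686, on slide 1), and 3 were higher and 3 lower without overlap on the Per1-high arrays, with 39 overlapping, where 4.01% of all genes did not overlap (1.99% higher and 2.02% lower). The median of their differences was -0.08, against -0.01 over all genes. The 3 that were higher were Kcnab1, Ano1 and Gja3. Kcnab1, an accessory subunit gene of voltage-gated potassium channels, read -2.36 to -2.01 (median -2.15) on Per1-high and -4.24 to -3.54 (median -3.81) on Per1-low arrays, a 3.15-fold difference of medians. Ano1, a calcium-activated chloride channel gene, read -2.87 to -2.41 (median -2.66) on Per1-high and -4.17 to -3.29 (median -3.49) on Per1-low arrays, and Gja3, a connexin gene best known from the lens, read -2.70 to -2.30 (median -2.62) on Per1-high and -3.0 to -2.76 (median -2.84) on Per1-low arrays. The 3 that were lower were Scn10a, Jup and Cacnb3. Scn10a, a sodium channel gene, read -4.47 to -3.85 (median -4.23) on Per1-high and -3.78 to -2.62 (median -3.37) on Per1-low arrays. Jup, which encodes the junction protein plakoglobin, read -1.84 to -1.63 (median -1.75) on Per1-high and -1.41 to -0.99 (median -1.28) on Per1-low arrays, and Cacnb3, a calcium channel accessory gene, -0.65 to -0.37 (median -0.47) on Per1-high and -0.34 to -0.02 (median -0.15) on Per1-low arrays. Of the groups in this list, 1 of 8 tested potassium channel genes, 1 of 9 carriers and 1 of 4 connexin and pannexin genes were higher, and 1 of 3 sodium channel, 1 of 10 calcium and pacemaker channel and 1 of 11 junction and scaffold genes lower.

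Of the cell type markers, 2 separated the Per1-high from the Per1-low arrays, both higher there: Sln, the sarcolipin gene of atrial muscle, and Kdr, an endothelial receptor gene. Sln read 3.16 to 3.75 (median 3.45) on Per1-high and 2.03 to 2.53 (median 2.37) on Per1-low arrays, and Kdr 0.81 to 1.15 (median 1.02) on Per1-high and 0.05 to 0.67 (median 0.27) on Per1-low arrays. The summed signal of the 8 atrial markers, in units of the 75th percentile, was 586 to 699 on Per1-high and 604 to 691 on Per1-low arrays, with 1 of 8 separating. That of the 4 endothelial markers, nearly all of it from Kdr, was 1.78 to 2.25 on Per1-high and 1.05 to 1.61 on Per1-low arrays, with the defining Pecam1 and Cdh5 above background on 0 arrays. The other sums overlapped. The fibroblast sum was 29 to 47.9 on Per1-high and 33.5 to 49.8 on Per1-low arrays, the smooth muscle sum 139 to 178 on Per1-high and 131 to 162 on Per1-low arrays, and the ventricular sum 12.3 to 21.1 on Per1-high and 12.5 to 19.2 on Per1-low arrays. The macrophage sum was 0.0465 to 0.0779 on Per1-high and 0.0473 to 0.0987 on Per1-low arrays, and the neuron sum 0.0903 to 0.113 on Per1-high and 0.0868 to 0.123 on Per1-low arrays. The part of these markers in the channel and connexin levels was not tested.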

How the data were processed

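RNA of 16 HL-1 cultures was labelled with Cy3 and hybridised to 1 single-colour Agilent array each, and scanner images were read with Agilent Feature Extraction 12 (from the submitters' processing notes). The deposited processed signal is a linear intensity with the background subtracted, per the file headers. The deposited table of the series holds log2 values, all 16 columns with a median of 4.70 and each closest to its own scanner file (r of at least 0.999 across probes). How it was made is not stated in the labels, so it served as an alternative only.

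Control spots and spots with outlier flags were left out, spots of a probe averaged, and log2 of the signal taken minus the array's 75th percentile. Of 41174 probes, 24455 were kept, being well above background on the 4 arrays of some label, and the brightest of a gene stood for it. Accessions matched the RefSeq gene table of GRCm38.p6 for 28223 probes. Labels were compared in 6 contrasts with limma 3.58.1 in R 4.3.3 (lmFit, then eBayes with a trend), with Benjamini-Hochberg adjustment over 17773 genes, two-sided, after the fit was tested on simulated data. The number of arrays limits the precision. Per1-high and Per1-low arrays (level above and below 0) were described by ranges.

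The genes, the lists and the alternatives were chosen with earlier results of these data known. Named with their values are genes called, genes whose Per1-high and Per1-low arrays do not overlap, and those with the next largest difference of medians up to 8. Array numbers were not treated as pairing the samples. The files hold no mean signal, so the normexp alternative used the median signal with an offset of 50, without spots more than 20 units below their local background (0 to 18 per array).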

Additional observations from a re-analysis of the deposited data

Results flagged for a closer look

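Within a label of 4 arrays, 10 of the 96 groups of a gene and a label held an array standing apart by Dixon's test (gap over range above 0.829), where chance alone marks about 1 in 20 groups. Kcnj12 stood apart on Dex+E2 3 at -5.33 (the others -3.43 to -3.22) and on Dex 3 at -5.43 (the others -3.46 to -3.10), both Per1-low arrays among Per1-high ones. Kcnh2 on Dex+E2 3, at 1.72 (the others 1.29 to 1.34), was the same kind, and Cacna1h on Vehicle 4, at -0.044 (the others 0.82 to 0.97), was a Per1-high array among Per1-low ones. Cacna1c on Dex 3 was at -0.71 (the others -0.80 to -0.78).

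Among arrays that share their Per1 side with at least 2 of their label, Gjc1 was at 3.81 on Dex 4 (the others 4.20 to 4.27), Kcnh6 at -4.89 on Dex 4 (the others -4.46 to -4.41) and Cacna2d1 at 0.42 on Dex 4 (the others 0.55 to 0.57). Kcne1 was at 0.82 on Dex+E2 4 (the others 1.23 to 1.29), and Hcn2 at -3.65 on Dex+E2 2 (the others -4.06 to -4.0). Dex 4 accounted for 3 of the 10.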

How the results depend on the processing

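The counts of genes called by limma stayed at 0 in all 6 label comparisons under normexp, quantile normalization, the deposited table, other filters and slide as a block, and without any one array (0 to 0), with 2 exceptions: 1 gene was called for E2 against vehicle with a variance prior without a trend, and 45 for Dex against vehicle on slide 1 alone, which compares 2 arrays with 2. No listed gene was called under any of these. The replicate block, with array number as a term, called 0 genes. The numbers were not taken as pairing the samples. Deviations from label means correlated across genes by -0.16 to 0.46 between arrays numbered 1, -0.08 to 0.16 for 2, -0.09 to 0.31 for 3 and 0.11 to 0.45 for 4. All 6 pairs of arrays numbered 4 correlated positively, and 9 of 16 arrays correlated best with their own number. Array number was thus not free of shared structure, and the count to be met by chance was not computed. Slide as a fixed block changed the sign of 37 of the 144 listed-gene differences between labels, against 16 with slide as a random block, 16 under normexp, 7 after quantile normalization and 6 in the deposited table. The Per1-high and Per1-low arrays did not overlap for 6 listed genes, for 4 under normexp, 5 after quantile normalization, 5 in the deposited table, and 6 to 9 without any one array (9 without E2 replicate 3), where leaving out an array cannot make separated ranges overlap. Of the 3 settings that change the levels (normexp, quantile normalization, deposited table), Kcnj12, Cacna1g and Kcnh2 separated in 3, Gja5 and Cacnb2 in 2 (not normexp), Gja1 in 1 (normexp) and Kcnj11 in 0. Under normexp the differences of medians shrank to -0.57 for Gja5, -0.40 for Gja1, 0.56 for Kcnj12 and -0.06 for Kcnh6, and that of Hcn4 became positive at 0.08. The offset of 50 units, added before log2, by itself makes log2 differences smaller, most of all for dim probes. Smaller values of dim genes under normexp are thus partly built into that setting. How much of each change came from the offset was not tested. Array 4 minus array 3 had 1 sign in 12 genes, 10 under normexp and 13 to 15 without the pair of a label, which can only keep or raise it. Low signal over background limits Kcnj8, Kcnd2 and Hcn4. Kcnj12 was well above background on 16 arrays, but its signal on the Per1-low arrays (-5.43 to -4.12) was low too. The size of its difference therefore depends on the background correction.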
